A study of Mus musculus with 4 samples.

Results

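The 10 genes described here encode the receptors through which ILC3s receive IL-1, IL-18, IL-23 and IL-12, with 2 secreted or soluble partners of the IL-1 and IL-18 systems. They were chosen by name from the 53379 genes of the series: Il1r1, Il1r2, Il1rap and Il1rn of the IL-1 system, Il18, Il18r1 and Il18rap of the IL-18 system, and Il23r, Il12rb1 and Il12rb2 of the IL-23 and IL-12 receptors. All 10 were found, and 8 had a mean above 1 FPKM (fragments scaled to the length of the transcript and to the size of the library) in either group and were tested.

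ILC3s are innate lymphocytes that release IL-22, IL-17 and GM-CSF when macrophages and dendritic cells of the gut send IL-23 and IL-1β. IL-1 signals through IL-1R1, which it joins with the accessory chain IL-1RAP, whereas IL-1R2 binds IL-1 without signalling and IL-1RN occupies IL-1R1 as an antagonist. IL-18 signals through IL-18R1 and IL-18RAP, IL-23 through IL-23R with IL-12RB1, and IL-12 through IL-12RB2 with the same IL-12RB1 chain.

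RNA was sequenced from ILC3s of the small intestinal lamina propria of mixed bone marrow chimeras, to ask what Brg1, an ATPase of the BAF chromatin remodeling complex encoded by Smarca4, changes in these cells when both genotypes share a host. The hosts were sub-lethally irradiated Rag2-/-Il2rg-/- mice, which lack T, B and innate lymphocytes of their own, and were given equal numbers of marrow cells from either donor. Brg1-sufficient ILC3s were sorted as Thy1.2high Thy1.1- CD45low cells and came from Thy1.2 Rag1-/- Smarca4f/f marrow. Brg1-deficient ILC3s were sorted as Thy1.2high Thy1.1+ CD45low cells and came from Thy1.1Thy1.2 Rag1-/- Smarca4f/f marrow that also carried a Cre transgene. The sort was made 6 to 7 weeks after transfer, and there were 2 libraries per group. All donors thus carried the floxed Smarca4 allele and lacked Rag1, and the groups differed in the transgene and in Thy1.1 as well as in Brg1, so that these cannot be told apart. The gate took ILC3s as a whole, without a split into NKp46+ and other subsets. In such bulk samples, fewer cells that express a gene and less RNA per cell cannot be told apart.

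Smarca4 had 17.1 and 16.7 FPKM in Brg1-sufficient ILC3s against 9.98 and 9.03 FPKM in Brg1-deficient ones, 56.2% of the Brg1-sufficient mean (log2 fold change -0.77, standard error 0.164, adjusted p = 0.153 from limma). The targeted gene thus missed an adjusted p of 0.05 itself. The ILC3 label was met by Il7r, between 433 and 583 FPKM, and by Kit, between 242 and 285 FPKM. Markers of other cells were also read. Summed over its list, the level of T cell markers was 653 to 742 FPKM in Brg1-sufficient and 396 to 405 FPKM in Brg1-deficient libraries, the constant segments Tcrg-C1 and Trbc2 holding most of it. ILC2 markers summed to 225 to 484 and 117 to 142 FPKM, NK cell and ILC1 markers to 438 to 569 and 267 to 297 FPKM, and macrophage, monocyte and dendritic cell markers to 169 to 360 and 124 to 319 FPKM, respectively. Klrk1, at 105 and 113 FPKM against 165 and 190 FPKM, made up most of the NK cell and ILC1 sum in the Brg1-deficient libraries. In Brg1-sufficient library 1 it was below Nkg7, at 122 and 35.1 FPKM against 4.33 and 5.1 FPKM. In Brg1-sufficient library 2 it was below Gzmc, at 53.2 and 156 FPKM against 32.2 and 9.99 FPKM. Of the 12 tested genes of the NK cell and ILC1 list, 6 were lower and 1 was higher by the limits of the study's gene list. These limits were p under 0.05, FDR under 0.4, a mean above 5 FPKM in either group and a log2 ratio of means beyond 0.5. Of all genes, 4.37% and 3.85% met them in these directions. The median log2 fold change of the 12 genes was -1.65. Ncr1 was at 31.3 and 35.5 FPKM against 5.37 and 6.02 FPKM (adjusted p = 0.0330 from limma). B cell, neutrophil, mast cell, epithelial and stromal lists were each at 91.8 FPKM or less, and Elane was listed at 0 in all 4 libraries.

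The promoters of 4 receptor genes are shown first, because they hold the pairs that the results turn on: the decoy Il1r2, the one gene that met the limits of the study's gene list, beside the signalling chain Il1r1, and the IL-23-specific chain Il23r, the most abundant of the 10, beside the IL-12-specific chain Il12rb2, the lowest by its mean over the 4 libraries. The stretches lie before a RefSeq transcription start on GRCm38.p6 and end where an annotated exon begins. They are at chr1:40085843-40085984 (plus strand) for Il1r2, chr1:40224830-40225079 (plus) for Il1r1, chr6:67491856-67492105 (minus) for Il23r and chr6:67376189-67376438 (minus) for Il12rb2. Capitals mark complete matches, on either strand, to a nuclear receptor half-site (AGGTCA) or a STAT motif (TTCNNNGAA).
Il1r2: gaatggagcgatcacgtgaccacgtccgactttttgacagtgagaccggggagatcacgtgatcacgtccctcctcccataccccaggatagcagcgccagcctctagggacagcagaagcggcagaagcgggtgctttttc
Il1r1: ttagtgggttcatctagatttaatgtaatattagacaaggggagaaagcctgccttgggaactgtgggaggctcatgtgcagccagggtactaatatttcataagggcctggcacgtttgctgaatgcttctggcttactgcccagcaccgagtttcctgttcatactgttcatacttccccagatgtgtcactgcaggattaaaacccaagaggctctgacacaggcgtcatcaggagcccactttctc
Il23r: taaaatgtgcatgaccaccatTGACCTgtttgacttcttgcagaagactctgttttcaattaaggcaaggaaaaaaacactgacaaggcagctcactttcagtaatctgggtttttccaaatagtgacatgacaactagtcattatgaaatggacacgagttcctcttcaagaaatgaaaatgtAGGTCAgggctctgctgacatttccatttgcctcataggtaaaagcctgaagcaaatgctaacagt
Il12rb2: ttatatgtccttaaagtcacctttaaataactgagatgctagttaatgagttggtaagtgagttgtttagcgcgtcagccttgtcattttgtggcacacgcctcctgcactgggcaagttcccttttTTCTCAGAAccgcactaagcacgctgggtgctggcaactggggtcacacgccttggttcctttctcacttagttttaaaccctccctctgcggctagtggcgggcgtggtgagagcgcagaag

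Il23r held 2 nuclear receptor half-sites, 229 and 66 bases before the start, the first of them on the opposite strand. At least 1 such half-site was found in 16.3% of 32817 RefSeq windows of 300 bases. Il12rb2 held a STAT motif 123 bases before its start, as 8.29% of windows did, and an NF-kB motif (1.201% of windows) that began 1 base before the start and ran into the transcript. Il1r2 held a STAT motif that began 111 bases before the start and reached past the stretch shown. Neither of the 2 windows of Il1r1 held a match to these 3 motifs or to the AP-1 (TGANTCA), RUNX (TGTGGT) or T-box (AGGTGTGA) motif, which 7.81%, 16.8% and 1.27% of all windows held. The T-box letters were in none of the 14 windows of the 9 genes that had one. These matches are descriptions of letters and were not tested as binding sites.

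The levels of the receptors spanned a wide range. Il23r was highest in every library, at 209 to 268 FPKM, above 97.4% of the genes tested by mean level, followed by Il1r1 at 106 to 147, Il18r1 at 68.5 to 89.2 and Il18rap at 47.5 to 54.3 FPKM. No library of one of these 4 genes reached the range of the next. Il12rb1 followed at 21.3 to 36.4 FPKM and overlapped with Il1r2, at 5.07 to 29.0 FPKM. The lowest values of Il1r2 in turn lay within the range of Il1rn, at 3.42 to 6.68 FPKM, which overlapped with Il1rap, at 3.01 to 4.42 FPKM. Il18 and Il12rb2 were near the lower limit of the data and were not tested. Within the IL-23 and IL-1 receptors, the cytokine-specific chains Il23r and Il1r1 were thus far above the shared or accessory chains Il12rb1 and Il1rap. This order compares FPKM levels, which are scaled by transcript length.

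**Figure D1:**
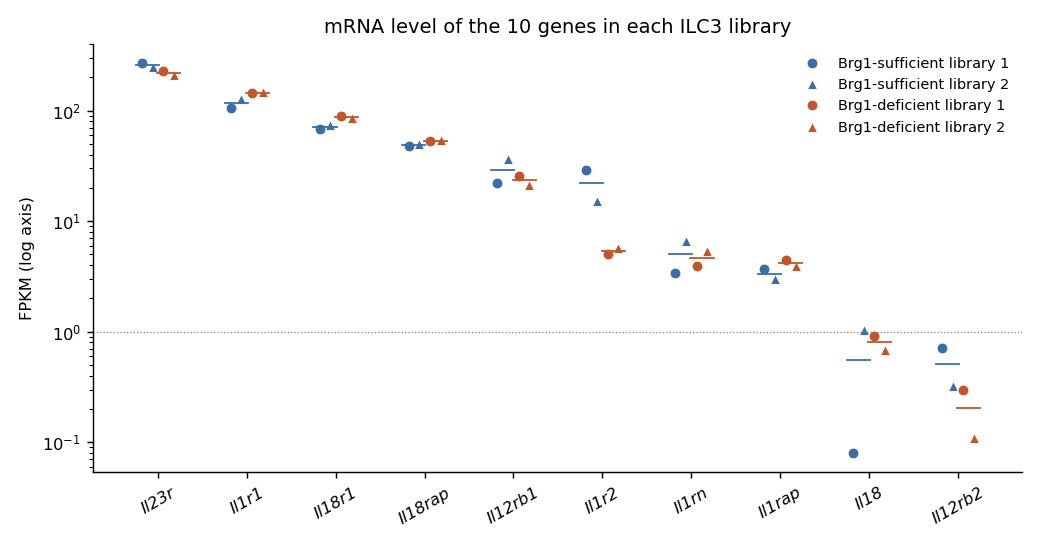
FPKM of each of the 10 genes on a log axis, with 1 point per library (circles for library 1, triangles for library 2), group means as short lines, and a dotted line at 1 FPKM. The libraries of Il1r2 sat at 29.0 and 15.1 FPKM for Brg1-sufficient and 5.07 and 5.74 FPKM for Brg1-deficient ILC3s, whereas the groups lay close together for the other abundant receptors.

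Among the IL-1 receptors, Il1r2, the decoy, was lower in Brg1-deficient ILC3s and Il1r1, the signalling chain, was not. Il1r2 (chr1:40074079-40125231, plus strand) reached 29.0 and 15.1 FPKM in Brg1-sufficient libraries 1 and 2, against 5.07 and 5.74 FPKM in Brg1-deficient libraries 1 and 2. The groups did not overlap, and the lower Brg1-sufficient library was still 2.63-fold above the higher Brg1-deficient one, although the Brg1-sufficient libraries differed by 1.92-fold from each other. The means were 22.0 ± 9.81 and 5.41 ± 0.474 FPKM (SD, n = 2 each), which is 4.08-fold lower. On the log2(FPKM + 1) scale the fold change was -1.78 (standard error 0.321, 95% confidence interval -2.59 to -0.97), with an unadjusted p of 0.00207 and an adjusted p of 0.113 from limma with Benjamini-Hochberg adjustment over all 14739 genes tested. Il1r2 therefore missed an adjusted p of 0.05, which 0.305% of all genes reached. It met the limits of the study's gene list, here applied to p-values from limma, as 4.37% of genes did in the lower direction and 3.85% in the higher. Only 0.923% of genes had a log2 fold change as low. Without Brg1-sufficient library 1 the log2 fold change was -1.33 and without library 2 it was -2.23. Without either Brg1-deficient library it was -1.71 or -1.86, but 0 genes of the whole table then met the limits of the list in limma, where 509 lower and 541 higher, or 534 and 521, had an unadjusted p under 0.05.

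Il1r1 (chr1:40225080-40317257, plus strand) reached 106 and 128 FPKM in Brg1-sufficient and 145 and 147 FPKM in Brg1-deficient libraries. Both Brg1-deficient libraries were above both Brg1-sufficient ones, by 1.13-fold at the nearest pair, which was less than the 1.22-fold between the Brg1-sufficient libraries. The log2 fold change was 0.32 (standard error 0.152, 95% confidence interval -0.06 to 0.70, adjusted p = 0.472 from limma). Il1rap (chr16:26581704-26730117, plus strand), the accessory chain, was at 3.69 and 3.01 FPKM and at 4.42 and 3.94 FPKM. Its groups did not overlap, but its log2 fold change of 0.25 had a 95% confidence interval of -0.32 to 0.83 (adjusted p = 0.677 from limma). Il1rap shares 552 exon bases with the antisense gene Gm20319, which was at 0.10 to 0.45 FPKM, and reads of the 2 genes cannot be told apart without strand.

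The level of the signalling chain relative to the decoy separated the groups. On the log2(FPKM + 1) scale this ratio only combines the fold changes of Il1r1 (0.32) and Il1r2 (-1.78), so it is no separate result. The ratio of Il1r1 to Il1r2 FPKM was 3.64 and 8.50 in the Brg1-sufficient libraries and 28.5 and 25.6 in the Brg1-deficient ones. The ratio in each Brg1-deficient library was above that in each Brg1-sufficient library. On the log2(FPKM + 1) scale the ratios were 1.83 and 3.01 against 4.58 and 4.46, a difference of 2.10 (two-sided exact permutation p = 0.333, the smallest that 2 against 2 libraries can give, and 1 after Benjamini-Hochberg adjustment over the 6 ratios compared). By contrast, Il1rap amounted to 0.0349 and 0.0234 of the FPKM of Il1r1 in Brg1-sufficient and 0.0306 and 0.0268 in Brg1-deficient libraries, and these ranges overlapped (log2 difference -0.07, two-sided exact permutation p = 1).

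Il1rn (chr2:24336853-24351494, plus strand), the antagonist, varied more between the libraries of a group than between the groups. It was at 3.42 and 6.68 FPKM in Brg1-sufficient libraries 1 and 2 and at 3.94 and 5.38 FPKM in Brg1-deficient libraries 1 and 2. The groups overlapped, and library 2 was above library 1 in both, by 1.95-fold and 1.37-fold. The log2 fold change between groups was -0.05 (standard error 0.333, 95% confidence interval -0.89 to 0.78, adjusted p = 0.961 from limma). It became -0.45 without Brg1-sufficient library 1, 0.34 without Brg1-sufficient library 2 and 0.13 without Brg1-deficient library 1. The ratio of Il1r1 to Il1rn differed by 0.37 on the log2 scale (two-sided exact permutation p = 0.667), and by 0.63 without Brg1-sufficient library 1, 0.12 without Brg1-sufficient library 2 and 0.20 without Brg1-deficient library 1. Il1b, the ligand, varied in the same manner, at 12.2 and 30.02 FPKM and at 10.2 and 23.0 FPKM, as did Il1a, at 1.23 and 3.15 FPKM and at 1.68 and 3.31 FPKM. So did 10 of the 15 macrophage, monocyte and dendritic cell markers, among them Lyz2 at 84.1, 203, 64.4 and 192 FPKM. The others, such as Itgam and Xcr1, did not. Library 2 was also above library 1 in both groups for 4 of 13 ILC3, 5 of 14 NK cell and ILC1, 1 of 13 T cell and 0 of 12 ILC2 markers. The share of all genes with this pattern was not counted. The part of macrophages and related cells in the values of Il1rn was not tested.

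Il1r2 moved with other markers. The summed ILC2 markers were at 484 and 225 FPKM in Brg1-sufficient and at 117 and 142 FPKM in Brg1-deficient libraries, which ordered the 4 libraries as Il1r2 did. Of the 12 genes of that list, 11 were tested, 6 were lower and 1 was higher by the limits of the study list (4.37% and 3.85% of all genes), and the median log2 fold change was -1.47. The peptide gene Calca was at 113 and 15.9 FPKM against 0.88 and 0.58 FPKM, and the chemokine receptor gene Ccr8 at 51.7 and 8.41 FPKM against 0.23 and 0.24 FPKM. The differences of both between the Brg1-sufficient libraries were wider than that of Il1r2. Hpgds, the 1 higher gene of the list, went the other way, at 2.31 and 6.61 FPKM against 20.6 and 19.9 FPKM. Gata3, which ILC3s also express, made up most of the sum in the Brg1-deficient libraries, at 74.5 and 105 FPKM, and Il13 was at 0 in both of these. Summed T cell markers, at 742, 653, 396 and 405 FPKM, had the same order, but Trac, at 33.6, 4.86, 5.08 and 12.5 FPKM, did not. The donors lacked Rag1 and the hosts Rag2, without which T cell receptor genes are not rearranged and T cells do not mature. The part of ILC2s in the difference in Il1r2 was not tested.

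**Figure D2:**
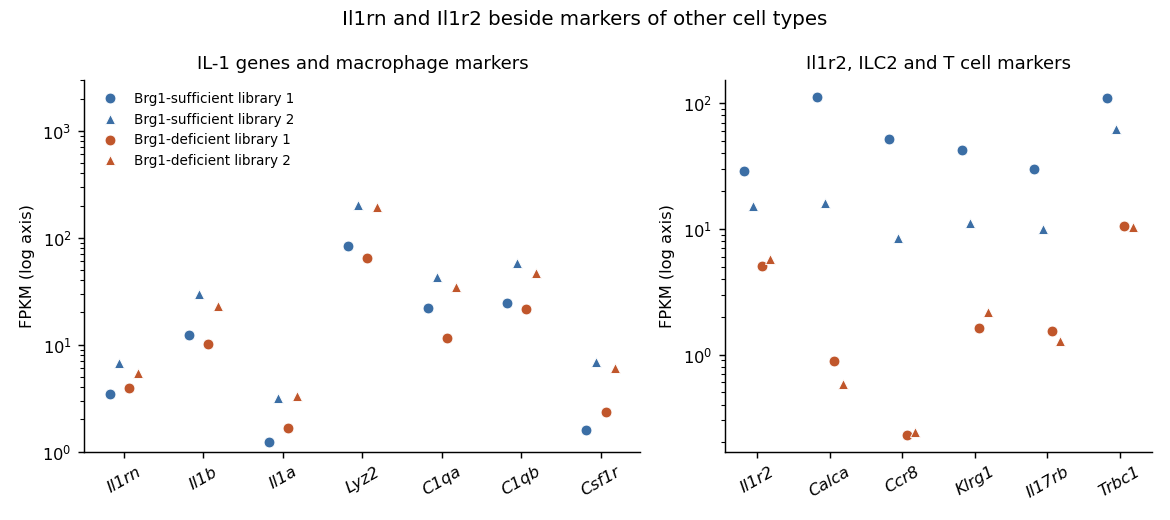
FPKM per library on log axes, with circles for library 1 and triangles for library 2. The left panel shows Il1rn with Il1b, Il1a and 4 macrophage markers, where triangles lie above circles in both groups, and the right panel shows Il1r2 with 4 ILC2 markers and the T cell receptor segment Trbc1, where Brg1-deficient libraries lie lowest and Brg1-sufficient library 1 highest. The markers drawn were picked after their values were seen. Hpgds, an ILC2 marker that was higher in Brg1-deficient libraries, is not drawn.

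The IL-18 receptor chains were abundant in both groups. Il18r1 (chr1:40465552-40500854, plus strand), the ligand-binding chain, was at 68.5 and 74.6 FPKM in Brg1-sufficient and at 89.2 and 86.8 FPKM in Brg1-deficient libraries. Both Brg1-deficient libraries were higher, by 1.16-fold at the nearest pair, but the log2 fold change of 0.30 (standard error 0.134) had a 95% confidence interval of -0.04 to 0.63 and an adjusted p of 0.453 from limma. Il18rap (chr1:40515362-40551705, plus strand), the signalling partner, was at 47.5 and 50.3 FPKM and at 52.9 and 54.3 FPKM. Its groups did not overlap, with a log2 fold change of 0.13 (95% confidence interval -0.21 to 0.47, adjusted p = 0.725 from limma). The ratio of Il18rap to Il18r1 was 0.694 and 0.675 in Brg1-sufficient and 0.593 and 0.626 in Brg1-deficient libraries, without overlap (log2 difference -0.17, two-sided exact permutation p = 0.333). Il18 itself (chr9:50554827-50581840, plus strand) was at 0.08 and 1.03 FPKM and at 0.92 and 0.68 FPKM. The ILC3s thus had receptor mRNA far above that of the ligand in all 4 libraries, and the values of Il18 overlapped between groups.

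Of the IL-23 and IL-12 receptors, Il23r (chr6:67422932-67491855, minus strand) was at 268 and 247 FPKM in Brg1-sufficient and at 227 and 209 FPKM in Brg1-deficient libraries. Both Brg1-deficient libraries were lower, by 1.09-fold at the nearest pair, about the fold between the libraries within either group (1.08-fold and 1.09-fold). The means were 257 ± 14.5 and 218 ± 12.8 FPKM (SD, n = 2 each). On the log2(FPKM + 1) scale this difference was -0.24 (standard error 0.134, 95% confidence interval -0.58 to 0.10, adjusted p = 0.535 from limma). Il12rb1 (chr8:70808449-70821424, plus strand), the chain shared by both receptors, was at 22.3 and 36.4 FPKM and at 25.9 and 21.3 FPKM. The groups overlapped, and the log2 fold change of -0.27 (95% confidence interval -0.94 to 0.40, adjusted p = 0.706 from limma) became 0.07 without Brg1-sufficient library 2. Il23r was 12.03- and 6.78-fold above Il12rb1 in the Brg1-sufficient libraries and 8.77- and 9.83-fold above it in the Brg1-deficient ones, which overlapped.

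Il12rb2 (chr6:67291318-67376188, minus strand), the chain that only the IL-12 receptor uses, was at 0.71 and 0.32 FPKM and at 0.30 and 0.11 FPKM. These low values are uncertain, since Il12rb2 shares 1519 exon bases with Serbp1 on the opposite strand, which was at 170 to 177 FPKM. On the FPKM scale Il23r was 377-fold or more above Il12rb2 in each library. The log2 ratio of Il23r to Il12rb2 differed by 0.08 between groups with a pseudocount of 1 and by 0.77 with one of 0.1, so that the difference depended on the pseudocount.

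**Figure D3:**
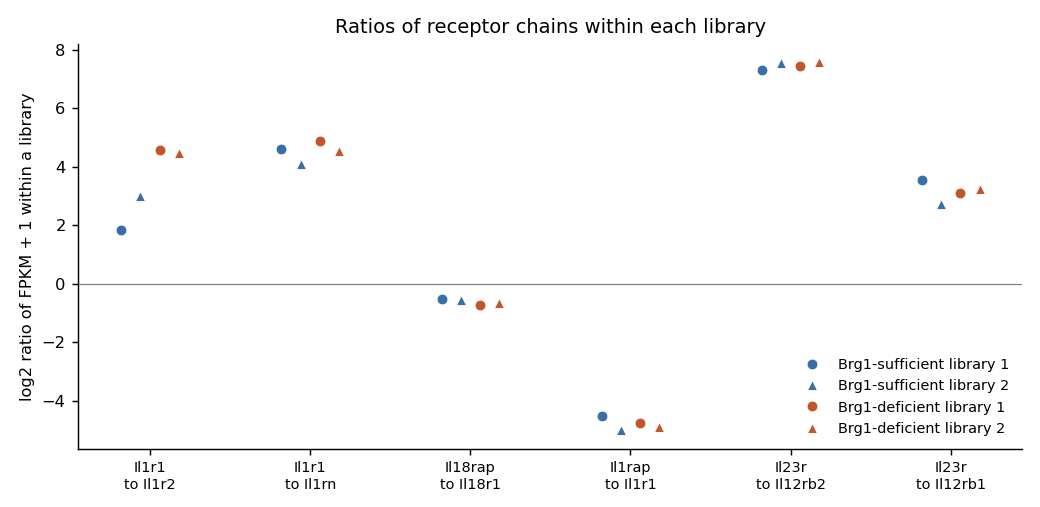
The log2 ratio of FPKM + 1 of 2 receptor chains within each library, for the 6 ratios compared, with circles for library 1 and triangles for library 2. Only the ratios of Il1r1 to Il1r2 and of Il18rap to Il18r1 separate the groups, by 2.10 and by -0.17 on average.

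Over the 8 tested genes, 0 had an adjusted p under 0.05 in limma and 1, Il1r2, had an unadjusted p under 0.05. Of all 14739 genes tested, 953 lower and 902 higher ones had such an unadjusted p. The libraries of the groups did not overlap in 2 genes that were lower (Il1r2 and Il23r) and 4 that were higher (Il1r1, Il1rap, Il18r1 and Il18rap), a pattern that 20.2% and 24.4% of all genes tested showed in the respective direction. The median log2 fold change was 0.04 beside 0.03 over all genes tested, and the median of its absolute size was 0.26 beside 0.25. By size of difference, the receptors other than Il1r2 thus lay in the bulk of the genes.

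**Figure D4:**
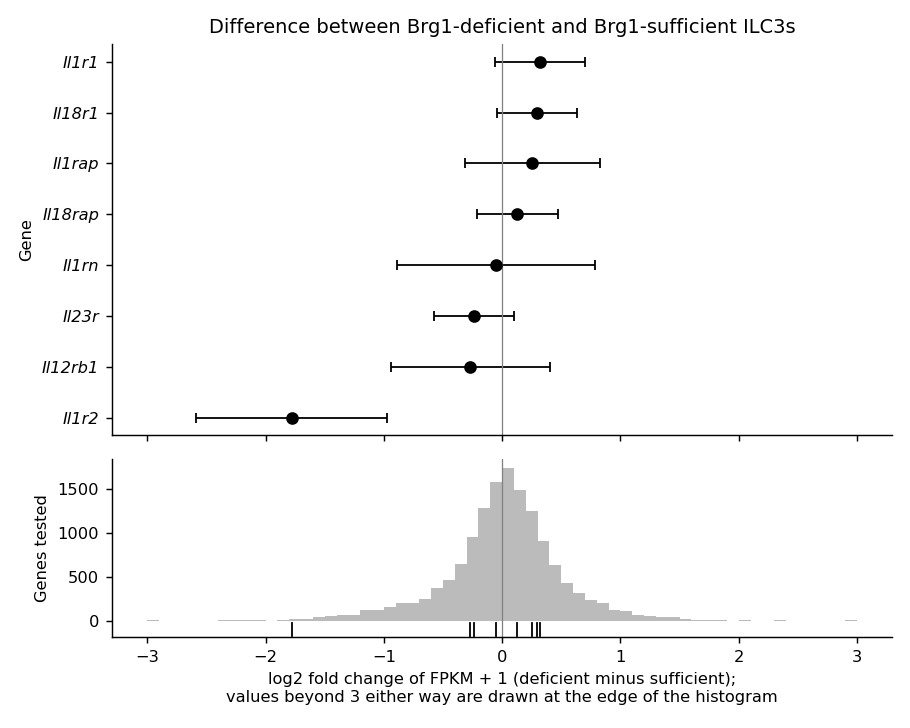
The upper panel shows the log2 fold change of FPKM + 1 (Brg1-deficient minus Brg1-sufficient) of the 8 tested genes with its 95% confidence interval from limma, and the lower panel the distribution of all 14739 genes tested, with the 8 genes as ticks. The interval of Il1r2, -2.59 to -0.97, is the one that does not reach 0.

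The genes Il1r2, Il1r1, Il18r1 and Il18rap, lie on one strand of chromosome 1 with Il1rl2 and Il1rl1, the receptors for IL-36 and IL-33, over 478 kb. Their differences did not follow a gradient along the chromosome. From Il1r2 onwards the log2 fold changes were -1.78 for Il1r2, 0.32 for Il1r1, -0.25 for Il1rl2, -0.96 for Il1rl1, 0.30 for Il18r1 and 0.13 for Il18rap. Il1rl1, whose end lies 136 bases from the start of Il18r1, was at 3.88, 0.60, 0.36 and 0.51 FPKM, so that its high value was in Brg1-sufficient library 1 alone (standard error 0.592, adjusted p = 0.578 from limma). Beyond the cluster, the sodium/proton exchanger gene Slc9a2 was at 9.61 and 12.2 FPKM in Brg1-sufficient and at 27.5 and 27.2 FPKM in Brg1-deficient libraries (log2 fold change 1.26, adjusted p = 0.0846 from limma). Map4k4, on the other side, was at 32.0 and 31.8 FPKM and at 32.9 and 32.4 FPKM. Il12rb2 and Il23r are also neighbours, with 46.7 kb between them on chromosome 6, and had the lowest and the highest mean level of the 10 genes, although Il18 was below Il12rb2 in Brg1-sufficient library 1.

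**Figure D5:**
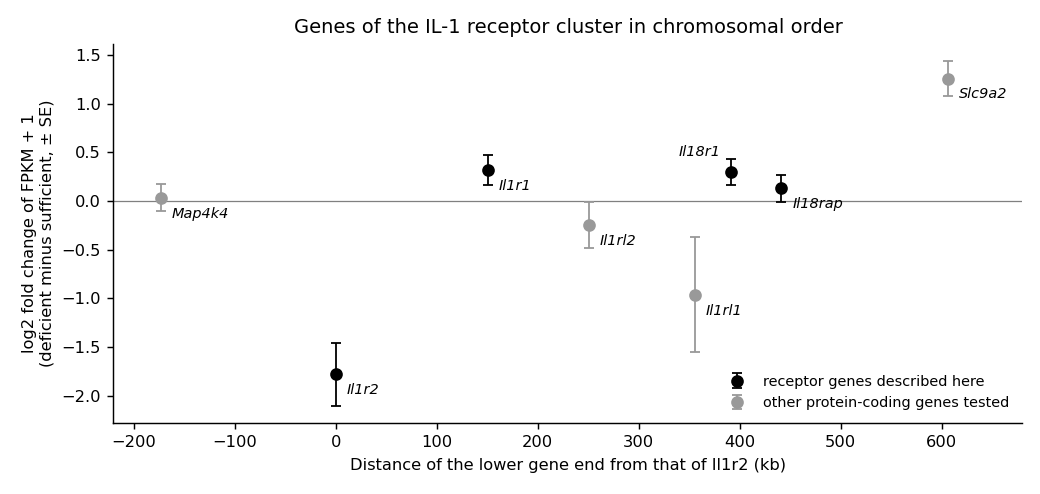
The log2 fold change (Brg1-deficient minus Brg1-sufficient, bars ± SE from limma) of the tested protein-coding genes of the IL-1 receptor cluster and its neighbours, against the distance in kb from Il1r2. Il1r2, at -1.78, and Il1r1, at 0.32, lie on opposite sides of 0 although they are next to each other.

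Other genes of these pathways were read from fixed lists. Of 14 further ligands, receptors and binding proteins of the IL-1 family, 7 were tested, and 2 were higher and 0 lower by the limits of the study list, which 3.85% and 4.37% of all genes met. Both are inhibitors. Sigirr, a receptor that dampens IL-1 and IL-18 signals, was at 29.4 and 37.9 FPKM in Brg1-sufficient and at 58.2 and 61.4 FPKM in Brg1-deficient libraries (log2 fold change 0.82, standard error 0.173, adjusted p = 0.153 from limma). Il18bp, a secreted protein that captures IL-18, was at 8.79 and 9.52 FPKM and at 13.6 and 12.7 FPKM (log2 fold change 0.48, adjusted p = 0.345 from limma). The groups did not overlap for either gene, while the median log2 fold change of the 7 was -0.25.

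Of 19 IL-1 and IL-18 signalling proteins, inhibitors included, 17 were tested. Again 2 were higher and 0 lower by the same limits (3.85% and 4.37% of all genes). Irak3, which encodes an inhibitory kinase of the pathway, was at 21.7 and 25.2 FPKM against 46.3 and 35.5 FPKM (log2 fold change 0.77, adjusted p = 0.200 from limma). Nfkbia, which encodes the NF-kB inhibitor IκBα, was at 4831 and 4924 FPKM against 6828 and 7210 FPKM (log2 fold change 0.52, adjusted p = 0.251 from limma). Libraries did not overlap in 7 of the 17 genes, all of them higher, where 24.4% of all genes were higher and 20.2% lower without overlap. The median log2 fold change was 0.14. The adaptor Myd88, one of the other 15, was at 61.1 and 83.8 FPKM against 95.4 and 99.1 FPKM.

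In the lists of IL-12 and IL-23 signalling, of the inflammasome and of the IL-12 family, no gene met the limits. Of 7 signalling proteins of the IL-12 and IL-23 receptors, all tested, 0 met the limits or had an unadjusted p under 0.05 in limma. Of 7 inflammasome and processing proteins, 6 were tested, 0 met the limits and 2 had an unadjusted p under 0.05 in limma. Such an unadjusted p was reached by 953 lower and 902 higher genes of all 14739 tested. The kinase gene Jak2 was at 17.9 and 7.80 FPKM against 6.82 and 6.72 FPKM. Nlrp3, an inflammasome sensor, was at 1.07 and 1.44 FPKM against 5.81 and 2.76 FPKM (log2 fold change 1.17, unadjusted p = 0.0218, adjusted p = 0.295 from limma). Casp1, which cleaves IL-1β and IL-18, was at 47.8 and 42.2 FPKM against 28.0 and 36.2 FPKM (log2 fold change -0.48, unadjusted p = 0.0427, adjusted p = 0.375 from limma). Among 7 other genes of the IL-12 family, 3 were tested, and 0 met the limits or had an unadjusted p under 0.05 in limma. Il12a, Il12b and Il27 stayed under 1 FPKM in all libraries, and the receptor chain Il6st was at 5.92 and 5.16 FPKM against 2.92 and 4.22 FPKM and Ebi3 at 3.11 and 1.14 FPKM against 0.54 and 1.23 FPKM.

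Of 8 genes for cytokines that these receptors induce, all tested, 2 were lower and 3 higher by the limits of the study list (4.37% and 3.85% of all genes). The other 3, Il17a, Il22 and Lta, did not meet them. Ifng, which IL-12 and IL-18 induce, was at 22.8 and 37.3 FPKM in Brg1-sufficient and at 3.42 and 3.22 FPKM in Brg1-deficient libraries (adjusted p = 0.0386 from limma). Il17f was at 555 and 421 FPKM against 2279 and 1852 FPKM (adjusted p = 0.0386 from limma), Csf2 at 245 and 200 FPKM against 564 and 638 FPKM, and Tnf at 138 and 232 FPKM against 288 and 353 FPKM. Il22, at 8328 and 10408 FPKM against 21159 and 10408 FPKM, ranked 4 and 2 among all genes in the Brg1-sufficient and 1 and 2 in the Brg1-deficient libraries. Its FPKM is set by this rank, since the deposited libraries share 1 distribution of values, and the groups overlapped. Il17f was 4.23-fold higher and Ifng 9.04-fold lower by the means of the groups, and Lta differed by 1.03-fold.

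Over the 4 libraries, the genes with the profile most like that of Il1r2 among 8089 protein-coding genes with a mean above 5 FPKM in either group were Ifitm2 (Euclidean distance of centred log2(FPKM + 1) profiles 0.138), Ccdc189 (0.261) and Bzw2 (0.313). Ifitm2 was at 65.9 and 30.9 FPKM in Brg1-sufficient and at 11.2 and 13.3 FPKM in Brg1-deficient libraries. For Il1r1, the receptor gene with the largest positive difference, they were Mre11a (0.0275), Fkbp1a (0.0312) and Mcts1 (0.0388). Fkbp1a was at 70.7 and 86.1 FPKM against 94.3 and 97.9 FPKM, and so close a likeness over 4 points is a description only.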

How the data were processed

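RNA was sequenced from 2 Brg1-sufficient and 2 Brg1-deficient ILC3 libraries, grouped by donor genotype as the labels give it. Per the labels and the methods, the authors mapped single-end reads to GRCm38.p5 with STAR 2.5, quantified genes with RSEM 1.2 on GENCODE M16, and deposited 1 FPKM value per gene and library. In the deposited FPKM values, 99.3% of 13693 ranks above 1 FPKM differed by less than 1% between libraries, as quantile normalization gives, so that a difference in total RNA would not be seen. Depth is unknown for every library, since counts were not used here, and counting error was not assessed. Whether strand was used in counting is not given in the sources used here.

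Genes with a mean above 1 FPKM in either group (14739) were tested on log2(FPKM + 1), which understates changes of low genes, with limma 3.58.1 (R 4.3.3; lmFit, then eBayes with trend), and p-values were adjusted by Benjamini-Hochberg over all of them. The limits of the study's list were applied to genes of any biotype. Ratios within libraries were compared with a two-sided exact permutation test. The libraries are described as biological duplicates. Whether each came from separate hosts is not given in the sources used here, and p-values measure only the spread between these libraries. Positions came from GENCODE M21 (GRCm38), promoters from RefSeq (GRCm38.p6), where 9 of the 10 genes matched.

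The genes, lists and tests were chosen with earlier results of these data known. All 10 genes are named. Of each other list, those at an adjusted p under 0.05 or within the limits of the study's list were to be named, at most the 4 with the largest log2 fold change, or else the 2 tested genes with the largest. One gene that this rule names is not reported here. Marker lists are given mainly as sums, and genes named outside this rule (from marker lists, Il1a, Il1b, Il17a, Il22, Lta and Myd88) were chosen after their values were seen. Alternatives were another pseudocount, no filter or a stricter one, quantile normalization, rescaling to TPM, limma without trend, the replicate number as a block, and leaving out each library. Quantile normalization could change little, since the deposited values already share a distribution. The fits were tested on simulated data.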

Additional observations from a re-analysis of the deposited data

How the results depend on the processing

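At an adjusted p under 0.05, limma called 33 lower and 12 higher genes of 14739. With only genes above a mean of 5 FPKM it called 73 and 41. With no filter on low values, and with limma without trend, it called 0 and 0 (1400 and 1308, and 965 and 903, at an unadjusted p under 0.05). A replicate block on the library number gave 248 and 150, among them Il1r2 (adjusted p 0.0118), so that 1 receptor gene passed in place of 0. The labels do not say that the numbers pair the libraries. Over all genes tested, which are not independent, libraries with the same number did not deviate together from the mean of their group (r = -0.000386). Such a value cannot exclude a pairing that acts on some genes. Library 2 was above library 1 in both groups for Il1rn, Il1b, Il1a and 10 of the 15 macrophage, monocyte and dendritic cell markers. The limits of the study's list gave 644 lower and 568 higher genes, and 236 and 161 with no filter, where 44235 genes entered the adjustment. Leaving out each library in turn gave 0 to 0 genes at an adjusted p under 0.05 in either direction (between 509 and 1331 lower and between 521 and 1489 higher at an unadjusted p under 0.05), and 0 to 682 lower and 0 to 755 higher genes by the list's limits, with 0 to 1 receptor gene. In these fits, a group of 1 library is assumed to vary like the other. The cause of these shifts was not tested.

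Across the libraries left out, the log2 fold change ranged from -2.23 to -1.33 for Il1r2, from -0.61 to 0.074 for Il12rb1 and from -0.45 to 0.34 for Il1rn, and from -0.43 to 0.058 for Pecam1, an endothelial marker. The log2 difference ranged from -0.32 to 0.19 for the ratio of Il1rap to Il1r1, from -0.046 to 0.21 for Il23r to Il12rb2 and from -0.37 to 0.43 for Il23r to Il12rb1. With a pseudocount of 0.1 the ratio of Il23r to Il12rb2 differed by 0.77. No other receptor gene or ratio changed direction under an alternative run on it. Il18 and Il12rb2 were under the filter, and their depth is unknown.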
